A study of Mus musculus with 12 samples.

Results

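Phase II enzymes attach a polar group to a drug, hormone or metabolite so that it can be excreted. The genes described here are the sulfotransferases (*Sult*), the glucuronosyltransferases (*Ugt1a*, *Ugt2a*, *Ugt2b*, *Ugt3a*), the cytosolic and mitochondrial glutathione transferases (*Gst*, classes alpha, mu, pi, theta, kappa, omega and zeta) and the microsomal glutathione transferases (*Mgst*) in mouse liver. They were chosen by symbol, without *Sult1e1* and without pseudogenes, and a gene was a member when it had at least 10 counts in at least 3 libraries. Of 54838 gene rows in the count table, 66 had a matching symbol and 50 were members: 13 of 20 sulfotransferases, 16 of 21 glucuronosyltransferases, 19 of 22 glutathione transferases and 2 of 3 microsomal glutathione transferases. The 16 that were left out had at most 12 counts in any library, and 5 of them had 0 counts in all 12 libraries. Just inside the minimum lay *Gstp2*, with 10 counts or more in 3 libraries, and *Ugt1a10*, in 9, and just outside lay *Sult2a4*, in 2, and *Ugt1a7c*, in 1. The liver RNA came from 12 C57BL/6J mice in 4 groups of 3, female by the study's methods, with no transgene or deletion in any group by the labels. The mice were 8 to 14 weeks old by the same methods. For 7 days the drinking water was plain or held 25 mM zinc sulfate. The mice were then injected with phosphate-buffered saline (PBS) or with 200 µg of the synthetic glucocorticoid dexamethasone (Dex) in PBS, and livers were taken 2 h later. The groups are called water-PBS (the control), water-Dex, zinc-PBS and zinc-Dex. The comparisons ask what Dex, zinc and both together did to the conjugating enzymes.

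Each family uses its own activated donor. Sulfotransferases take sulfate from PAPS (3′-phosphoadenosine-5′-phosphosulfate), glucuronosyltransferases of the *Ugt1a*, *Ugt2a* and *Ugt2b* groups take glucuronic acid from UDP-glucuronate, *Ugt3a* enzymes, counted with them here by symbol, use other UDP sugars, and glutathione transferases couple the tripeptide glutathione to electrophiles. In liver these genes are known targets of the nuclear receptors CAR and PXR, of the aryl hydrocarbon receptor AHR and of the oxidative stress factor NRF2 (*Nfe2l2*), and several sulfotransferases and glutathione transferases differ between male and female mice.

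The libraries held 9091152 to 12303527 counts, and the 50 members together took 1.13 to 1.35% of them. Values below are counts divided by DESeq2 size factors (normalized counts). A gene is called changed when the DESeq2 Wald test in 1 fit of all 12 libraries gave an adjusted p under 0.05, with adjustment over all genes tested. The stricter rule also asks for an absolute log2 fold change above 0.8. An exact permutation test of 1 gene in 3 against 3 mice has 0.1 as its smallest p, so the calls rest on the spread pooled across genes and groups. The stated sex was matched by *Ddx3y*, *Uty* and *Eif2s3y*, which were at 0 in all 12 libraries. Of the 5 sex-linked genes listed, *Xist* and the Y-linked *Kdm5d* were not at 0 in every library. The 5 genes summed to 4599 to 7803 normalized counts per library. The summed level of the 7 hepatocyte markers was 1177050 to 1387650 normalized counts in the 6 PBS libraries and 1583400 to 1726070 in the 6 Dex libraries, with 3 of 7 higher in water-Dex and 5 of 7 higher in zinc-Dex than in their PBS groups. The 6 lymphocyte markers fell to a summed 13.2 to 19.8 in water-Dex from 40.6 to 51.5 in water-PBS, 2 of the 6 passing the test. On zinc water their sum was 26.0 to 28.2 with Dex and 37.6 to 53.3 with PBS, and 0 of the 6 passed. In bulk tissue, fewer cells of a type and less RNA per cell cannot be told apart, and the part that these shifts play in the results was not tested. For the other cell types, 0 of 7 Kupffer cell markers changed in any comparison. In either Dex comparison, 0 of 7 cholangiocyte markers passed the test. Of 6 neutrophil markers (*Mpo* at 0), 3 were tested in each Dex comparison and 0 passed. Of 6 pancreas markers (*Prss2*, *Cpa1* and *Pnlip* at 0), 2 were tested in each and 0 passed. Sinusoidal endothelial markers had 1 of 6 higher and 2 of 6 lower in both Dex comparisons. Stellate cell markers had 1 of 6 lower in water-Dex and 2 of 6 higher in zinc-Dex. Of 6 gut epithelium markers, 1 of 3 tested was lower in water-Dex and 2 of 5 tested in zinc-Dex.

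Per exon length, *Mgst1*, a membrane-bound glutathione transferase and peroxidase, stood above all other members. Its 12-library mean was 13055 normalized counts per kb of exon, with single libraries from 11898 to 14314. Its normalized counts were 25529, 27488 and 27458 in water-PBS, 25627, 26541 and 24193 in zinc-PBS, 24615, 28814 and 25284 with Dex on plain water and 27304, 28546 and 23949.8 with both. The 4 groups overlapped, and *Mgst1* passed the test in no comparison. Second came *Gstm1*, a mu class enzyme, at 8055 per kb (6611 to 10551), ahead of *Gsta3* of the alpha class at 3320.4 (2569 to 4467). The library ranges of *Gstm1* and *Gsta3* did not overlap on this scale.

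The library range of *Gsta3* overlapped those of the next 5 genes, which also overlapped one another. They were the phenol sulfotransferase *Sult1a1* (3247 per kb, 2674 to 4365), *Ugt2b36* (3201), *Sult2a2* (3176), *Ugt2b5* (3106) and *Sult2a1* (3105), the last a hydroxysteroid sulfotransferase of bile acids and steroids. *Sult1a1* read 4029, 4199 and 4536 normalized counts in water-PBS, 4894, 5094 and 5024 in zinc-PBS, 4663, 4100.0 and 4819 with Dex on plain water and 6578, 4639 and 6143 with both, and every zinc-PBS library lay above every water-PBS library. *Ugt2b36*, the most abundant glucuronosyltransferase per length, read 6258, 6362 and 6919 in water-PBS and 7154, 7710.1 and 6312 in zinc-PBS. With Dex it read 6107, 6075 and 6498 on plain water and 6639, 6329 and 6717 on zinc water, and it passed the test in no comparison. *Ugt2a3* (1699 per kb) and *Gstt1* of the theta class (2039) completed the leading 3 of their families, and *Mgst3*, the other microsomal enzyme, was at 202. At the bottom lay *Gstp2* at 7.11 and *Ugt1a10* at 15 per kb. The sulfotransferases together took 0.210 ± 0.017% of all counts in water-PBS and 0.260 ± 0.041% in zinc-Dex (SD, n = 3), and the glucuronosyltransferases 0.359 ± 0.014% and 0.311 ± 0.0061%. These are shares of raw totals, not of normalized counts. For zinc-Dex against water-PBS the median log2 fold change of the glucuronosyltransferases was 0.09, with 2 higher and 0 lower. That of the sulfotransferases was 0.20, with 3 higher and 1 lower. Levels of near-identical copies are uncertain because reads that mapped to several places had been left out. Of the windows of 50 bases of the exons, 20.2% were unique for *Ugt1a6b*, 37.9% for *Sult2a2*, 45.7% for *Gstp2*, 50.2% for *Gsta2*, 71.2% for *Gstm3* and 81.1% for *Gstm1*, against 100% for *Sult1d1* and *Gsto1*. The *Ugt1a* genes also share their last exons, so a read there cannot be given to 1 of them. The lengths behind their levels per kb leave out these shared bases.

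**Figure D1:**
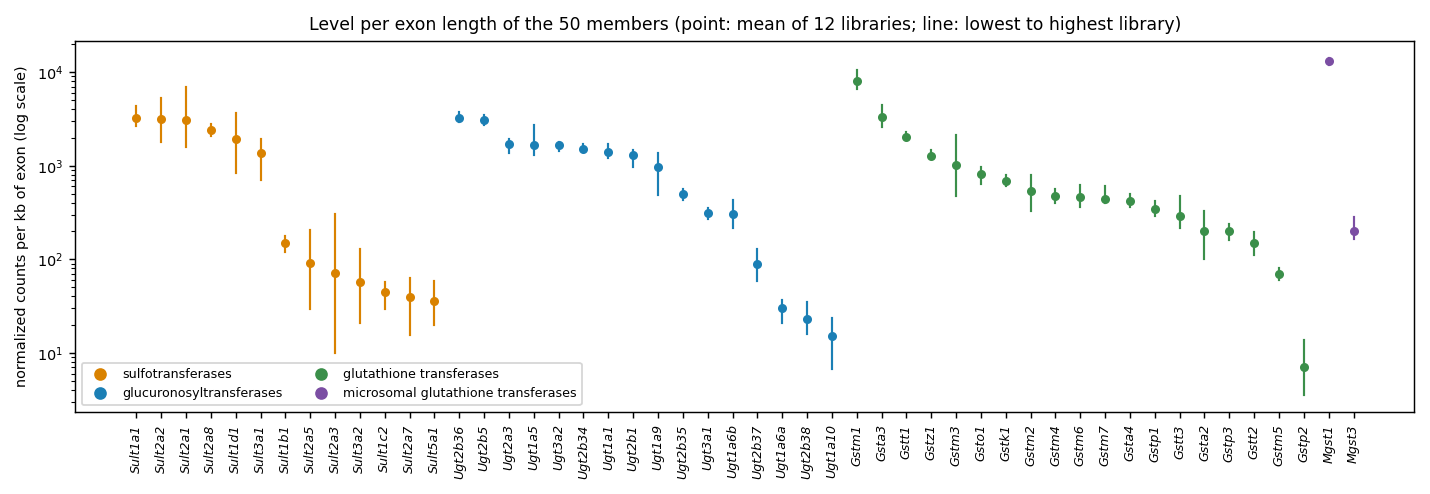
Mean of the 12 libraries (points) and lowest to highest library (lines) of each member in normalized counts per kb of exon on a log scale, grouped by family. *Mgst1* stands highest, and the widest line is that of *Sult2a3*, from 9.97 to 305.

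In mice on plain water, 2 h of Dex raised 6 members and lowered 1 of the 50 tested. The rises were led by *Gstm3* (2.70-fold), *Ugt1a10* (2.40-fold) and *Sult1d1* (2.39-fold), followed by *Gstm2* (1.69-fold), *Ugt2b37* (1.68-fold) and *Gstp1* (1.21-fold), and *Gstt2* fell to 0.733 of its level. Of all genes tested, 11.7% were higher and 9.91% lower, so 6 of 50 higher lay near that background and 1 of 50 lower under it. The stricter rule kept 3 members, against 9.68% of all genes. The median log2 fold change was 0.04 over the members and -0.01 over all genes tested. By family, 3 of 19 glutathione transferases, 2 of 16 glucuronosyltransferases, 1 of 13 sulfotransferases and 0 of 2 microsomal enzymes were higher.

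*Sult1d1* (ENSMUSG00000029273), a sulfotransferase known for sulfating dopamine and other catecholamines, had the smallest adjusted p of the members. It had 2041, 2485 and 3054 normalized counts in the water-PBS mice and 6401, 5714 and 6009 in the water-Dex mice. All 3 Dex libraries lay above all 3 controls, and the means were 2527 ± 508 and 6042 ± 345 (SD, n = 3). The log2 fold change was 1.26 ± 0.17 (SE), with a DESeq2 adjusted p of 1.36e-11.

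*Gstm3* (ENSMUSG00000004038), a mu class glutathione transferase, rose from 659, 774 and 617 normalized counts to 1822, 1224 and 2495. The groups did not overlap, but the Dex libraries spread about their mean of 1847 ± 636 (SD, n = 3) far more than the controls about 683 ± 80.9. Its log2 fold change was 1.43 ± 0.23 (SE, DESeq2 adjusted p = 1.85e-08). *Gstm2*, its neighbour in the mu cluster, read 706, 841 and 557 in water-PBS and 1063, 1192 and 1303 in water-Dex, a log2 fold change of 0.76 ± 0.15 (DESeq2 adjusted p = 5.52e-06). These 3 genes kept their call in all 19 alternative fits of this comparison.

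*Ugt1a10* was the third past the stricter rule, at far lower counts. Its libraries had 6.30, 9.10 and 8.79 normalized counts in water-PBS and 18.3, 22.3 and 17.8 in water-Dex. In the zinc groups it had 11.7, 9.62 and 8.15 with PBS and 19.6, 17.8 and 21.1 with Dex. The Dex libraries lay above the PBS libraries under both kinds of water, and the log2 fold change was 1.27 ± 0.44 on plain water (DESeq2 adjusted p = 0.0241) and 0.99 ± 0.42 on zinc water (DESeq2 adjusted p = 0.0773). Of 19 alternative fits, 7 lost the first call (DESeq2 adjusted p up to 0.113), including those that lacked any 1 water-PBS mouse or water-Dex replicate 1 or 2. *Gstp1*, the pi class enzyme, was lost in the same 7 fits, at a log2 fold change of 0.27 ± 0.10 (DESeq2 adjusted p = 0.0243) and means of 508 ± 8.11 and 613 ± 48.1 (SD, n = 3). *Ugt2b37* rose from 134 ± 32.4 to 225 ± 20.7 (SD, n = 3; DESeq2 adjusted p = 0.00564), and removing water-PBS replicate 2 ended its call (DESeq2 adjusted p = 0.0632).

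The single member that fell was *Gstt2*, a theta class enzyme, from 672, 638 and 678 normalized counts to 457, 504 and 497. Every Dex library lay under every control, with a log2 fold change of -0.45 ± 0.15 (DESeq2 adjusted p = 0.015). Removing water-PBS replicate 3 or water-Dex replicate 1 ended this call (DESeq2 adjusted p up to 0.0862) and left 0 members lower, and without water-PBS replicate 2, 3 members were higher. Among members that missed the threshold, *Sult3a2* had the largest positive value (0.55 ± 0.39, DESeq2 adjusted p = 0.355) and *Sult1c2* the largest negative value (-0.43 ± 0.23, DESeq2 adjusted p = 0.198).

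**Figure D2:**
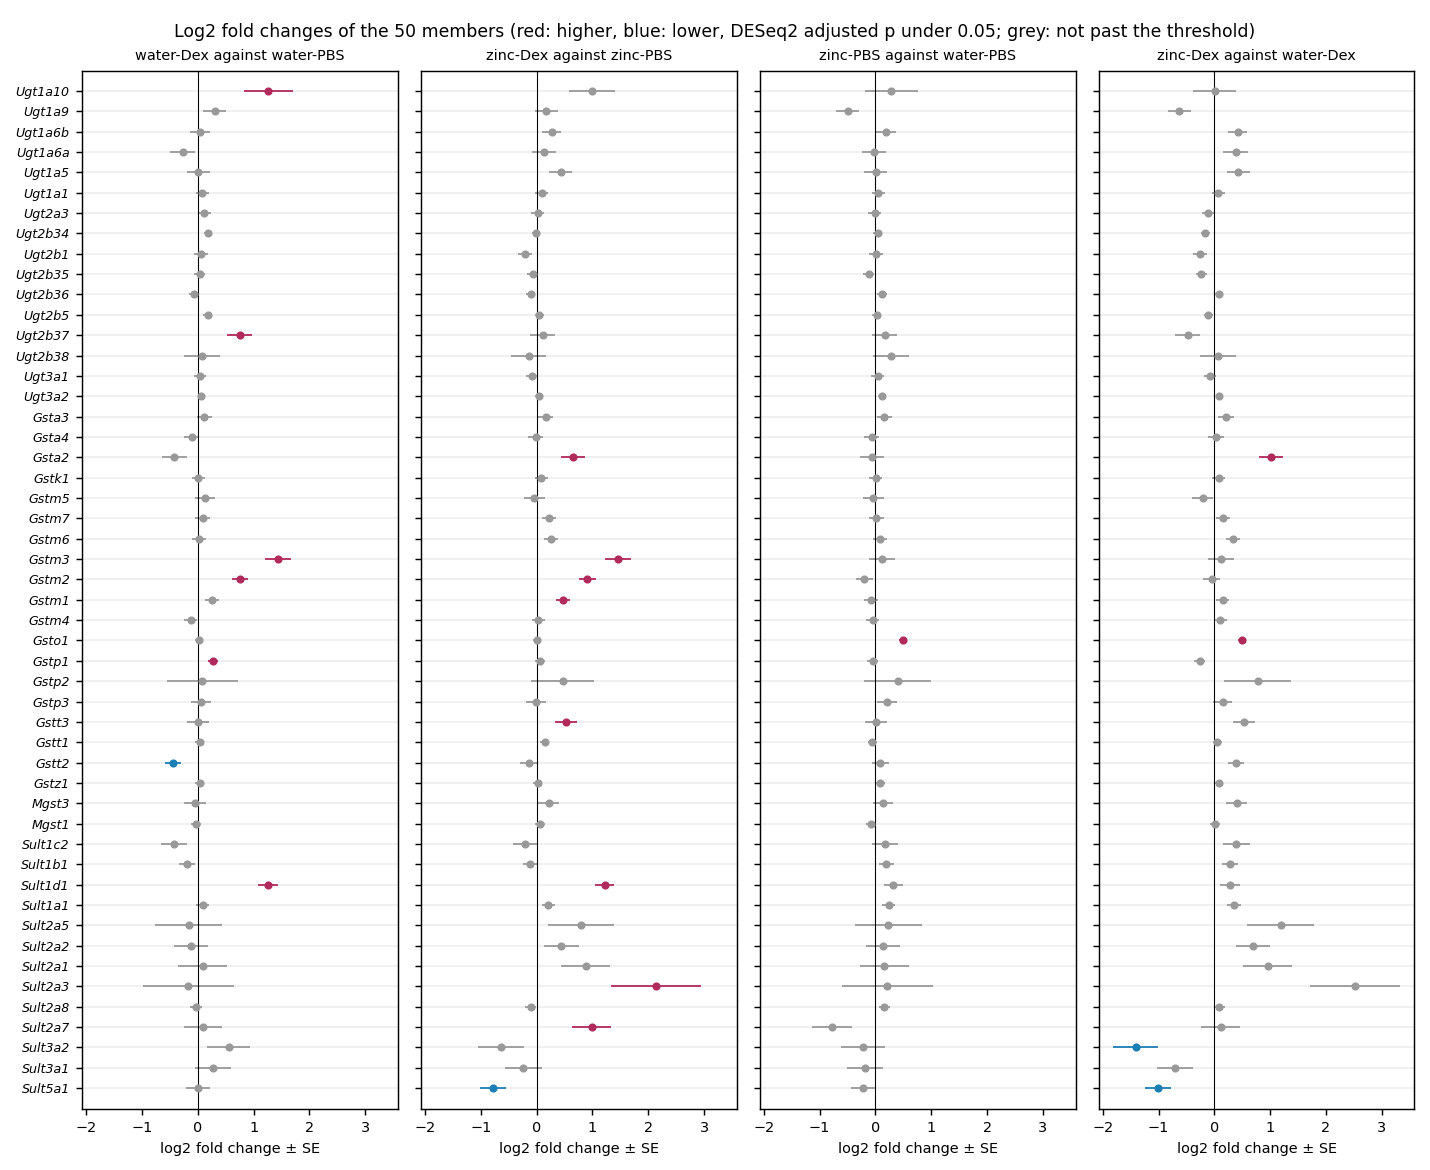
Log2 fold change with its SE (x axis) of the 50 members (y axis) in 4 comparisons. Red and blue points passed the DESeq2 test as higher or lower. *Sult1d1*, *Gstm3* and *Gstm2* are red in both Dex comparisons on the left, and *Gsto1* is red in both zinc comparisons on the right.

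The bases before the start sites of some members that moved are shown because the receptors above act through short DNA motifs. These members were picked after their values were seen, and other changed members are not shown. Each stretch holds the 100 bases before the most upstream GENCODE M21 start, read from the RefSeq promoter table in build GRCm38.p6 and written 5′ to 3′ on the gene's own strand. Capitals mark matches, on either strand, to the AHR element core GCGTG or to the metal response element core TGCNCNC with A or G as its first N.
*Sult1d1*, chr5:87569028-87569127, minus strand: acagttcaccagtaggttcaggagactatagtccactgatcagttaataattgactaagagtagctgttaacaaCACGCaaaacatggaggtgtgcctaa
*Gstm3*, chr3:107969284-107969383, minus strand: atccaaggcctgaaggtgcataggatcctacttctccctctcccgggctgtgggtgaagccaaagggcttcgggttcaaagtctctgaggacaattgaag
*Gstm2*, chr3:107986454-107986553, minus strand: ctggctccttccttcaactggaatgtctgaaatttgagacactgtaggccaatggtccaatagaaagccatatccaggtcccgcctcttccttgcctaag
*Gstm1*, chr3:108017974-108018073, minus strand: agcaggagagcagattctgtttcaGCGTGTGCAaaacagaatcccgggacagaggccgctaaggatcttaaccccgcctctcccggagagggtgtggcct
*Gsto1*, chr19:47854870-47854969, plus strand: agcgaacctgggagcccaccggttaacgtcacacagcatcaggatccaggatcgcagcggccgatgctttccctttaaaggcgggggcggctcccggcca

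*Sult1d1* held an AHR core, in reverse as CACGC. *Gstm1* held an AHR core that overlapped a metal response element core, whereas the stretches of *Gstm3*, *Gstm2* and *Gsto1* held neither. The RefSeq table has 300-base windows, from 250 before to 50 after a start, for 43 of the 50 members. In these windows the AHR core was found in 9 of 43 members (20.9%), against 35.2% of 27025 genes. The metal core, added to the search after the *Gsto1* values were seen, was found in 9 of 43 (20.9%) against 28.2% of genes. Among changed members with a window but no stretch above, *Gsta2* held both cores and *Gstp1* the AHR core. The antioxidant response element core TGACNNNGC, the NRF2 motif, was found in 4 (*Gsta3*, *Gstm5*, *Gstm7* and *Mgst1*, 9.30%) against 14%. A glucocorticoid response element (GNACA, 3 bases, TGTNC) was found in 0 of 43 members and in 0.537% of genes. These are letter matches in short windows and say nothing on binding.

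In zinc-treated mice, Dex raised 8 members and lowered 1 of 50. *Sult2a3* had the largest fold (4.40), followed by *Gstm3* (2.74), *Sult1d1* (2.33), *Sult2a7* (1.98), *Gstm2* (1.87), *Gsta2* (1.58), *Gstt3* (1.44) and *Gstm1* (1.39), and *Sult5a1* fell to 0.581 of its level. Over all genes tested, 11% were higher and 9.08% lower. The stricter rule kept 5 members, all higher, against 9.68% of genes. The median log2 fold change of the members was 0.09, against -0.01 for all genes. By family, 5 of 19 glutathione transferases and 3 of 13 sulfotransferases were higher, and 0 of 16 glucuronosyltransferases changed.

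The genes *Gstm3*, *Gstm2* and *Sult1d1* were called in both Dex comparisons, which share no library. They are 3 of the 6 higher in water-Dex and 3 of the 8 higher in zinc-Dex. The share of all called genes that the Dex comparisons have in common was not counted. *Sult1d1* stood at 3398, 3494 and 2570.2 normalized counts in zinc-PBS and 8952, 5722 and 7369 in zinc-Dex (log2 1.22 ± 0.17, DESeq2 adjusted p = 5.71e-11). *Gstm3* went from 715, 739.5 and 759 to 2759, 1427 and 1869 (log2 1.45 ± 0.23, DESeq2 adjusted p = 1.14e-08). The zinc-PBS libraries of *Gstm3* lay within a narrow band while the zinc-Dex libraries again spread widely. *Gstm2* went from 588, 632 and 617 to 1348, 1056 and 1038 (log2 0.91 ± 0.15, DESeq2 adjusted p = 2.52e-08). For all 3 genes the lowest zinc-Dex library was above the highest zinc-PBS library, and the calls held in all 19 alternative fits.

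The mu class lies as a cluster on chromosome 3 (mm10), with *Gstm5*, *Gstm7*, *Gstm6*, *Gstm3* (chr3:107963696-107969283), *Gstm2* (chr3:107981702-107986453), *Gstm1* (chr3:108012255-108017973) and *Gstm4* in this order along the chromosome. The changed genes *Gstm3*, *Gstm2* and *Gstm1* are next to each other. *Gstm1* had 9944, 10469 and 9884 normalized counts in zinc-PBS and 15542, 11769.9 and 14781 in zinc-Dex. The groups did not overlap, and the log2 fold change was 0.47 ± 0.12 (DESeq2 adjusted p = 0.00109), a call kept in all 19 alternative fits. In water-Dex the same gene gave 0.25 ± 0.12 (DESeq2 adjusted p = 0.143). The outer genes gave smaller values in both Dex comparisons: -0.13 ± 0.12 and 0.03 ± 0.12 for *Gstm4*, 0.02 ± 0.13 and 0.26 ± 0.12 for *Gstm6*, 0.09 ± 0.13 and 0.22 ± 0.13 for *Gstm7*, and 0.13 ± 0.18 and -0.04 ± 0.19 for *Gstm5*, none past the threshold. *Gstm3* and *Gstm1* share sequence, and how reads were divided between them was not tested.

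**Figure D3:**
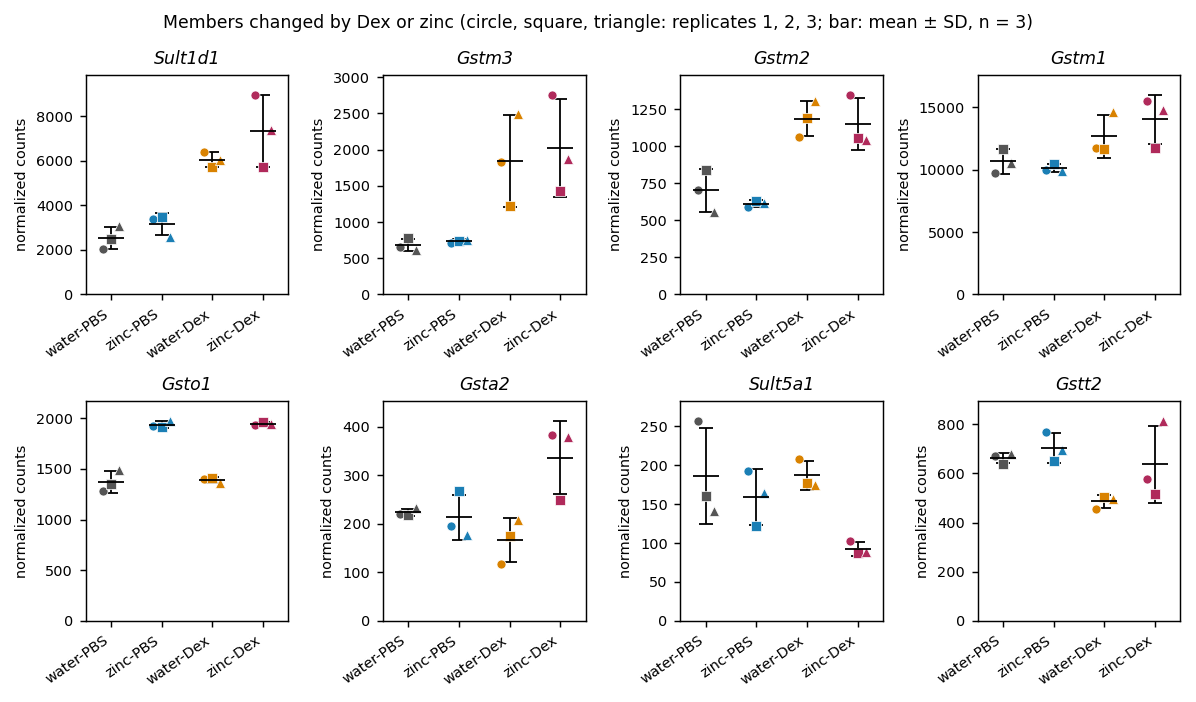
Normalized counts (y axis, from 0) of 8 members in each mouse of the 4 groups. Symbols are replicates 1 to 3 and bars are mean ± SD (n = 3). *Sult1d1*, *Gstm3* and *Gstm2* are higher in both Dex groups, *Gsto1* in both zinc groups, and *Sult5a1* is lowest in zinc-Dex.

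The remaining calls of the zinc-Dex against zinc-PBS comparison depended on single libraries. *Sult2a3* of the hydroxysteroid group had 34.3, 61.2 and 27.2 normalized counts in zinc-PBS and 311, 25.5 and 204 in zinc-Dex. In water-PBS and water-Dex it had 28.4, 40.0 and 37.3 and 10.2, 38.3 and 45.5. Zinc-Dex replicate 2 lay below every zinc-PBS library while replicates 1 and 3 lay far above. The log2 fold change was 2.14 ± 0.80 (DESeq2 adjusted p = 0.0396), and 11 of 19 alternative fits lost the call. They include those that lacked any 1 water-PBS mouse, zinc-PBS replicate 1 or 3, water-Dex replicate 2, or zinc-Dex replicate 1 or 3 (DESeq2 adjusted p up to 0.273). *Sult2a7* had 19.9, 45.5 and 27.2 in zinc-PBS, 81.5, 52.2 and 50 in zinc-Dex and 31.5, 74.6 and 52.7 in water-PBS. Its zinc-Dex libraries thus lay above those of zinc-PBS but within or near the range of the control (log2 0.99 ± 0.35, DESeq2 adjusted p = 0.0299). *Gstt3* (0.53 ± 0.20, DESeq2 adjusted p = 0.04) and *Gsta2* (0.66 ± 0.21, DESeq2 adjusted p = 0.0144) had overlapping groups. Both lost their call when zinc-PBS replicate 1 or 3 or zinc-Dex replicate 1 or 3 was removed (DESeq2 adjusted p up to 0.299 and 0.104), *Gstt3* also in edgeR, and *Sult2a7* when zinc-PBS replicate 1 or 3 or zinc-Dex replicate 1 was (up to 0.216). Removing zinc-PBS replicate 1, zinc-Dex replicate 1 or zinc-Dex replicate 3 left 5 members higher, removing zinc-PBS replicate 3 left 4, and removing zinc-Dex replicate 2 gave 13. The members lower then numbered 0 when zinc-PBS replicate 1 was removed, 2 for zinc-Dex replicate 3 and 5 for zinc-Dex replicate 2. The shares of all genes called in these fits are not given here, so the shifts cannot be read as particular to the members.

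*Sult5a1*, the lone *Sult5* gene among the members, was the one that fell. It had 257, 160.2 and 142 normalized counts in water-PBS, 192, 122 and 165 in zinc-PBS, 208, 178 and 175 with Dex on plain water and 103, 86.6 and 88.4 in zinc-Dex. All 3 zinc-Dex libraries lay under all other libraries. The log2 fold change was -0.78 ± 0.23 against zinc-PBS (DESeq2 adjusted p = 0.00557) and -1.01 ± 0.23 against water-Dex (DESeq2 adjusted p = 0.00299), while Dex alone gave 0.01 ± 0.22 and zinc alone -0.22 ± 0.22, neither past the threshold. Removing zinc-PBS replicate 1 ended the first call (DESeq2 adjusted p = 0.0653), and edgeR did not make the second. The interaction, the difference between the Dex effects with and without zinc, was -0.79 ± 0.32 (DESeq2 adjusted p = 0.999).

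Zinc without Dex changed 1 of 49 members tested, *Gsto1*, against 0.341% of all genes. Under the stricter rule it changed 0 members, against 0.138% of genes. By DESeq2 and also by edgeR 3 members had an unadjusted p under 0.05, a threshold at which the share of all genes was not counted. *Gsto1* (ENSMUSG00000025068, chr19:47854970-47864790) encodes the omega class glutathione transferase, which is known for reducing thiol disulfides, dehydroascorbate and arsenic compounds. It had 1277, 1352 and 1489 normalized counts in water-PBS and 1922, 1917 and 1974 in zinc-PBS. In the Dex-injected mice it had 1398, 1409 and 1359 with plain water and 1931, 1963 and 1944 with zinc. All 6 zinc libraries lay above all 6 plain-water libraries, whichever injection the mice had been given.

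The *Gsto1* means were 1373 ± 108 and 1938 ± 31.9 after PBS and 1389 ± 26.1 and 1946 ± 15.8 after Dex (SD, n = 3). The rise was 1.41-fold after PBS (log2 0.50 ± 0.07, DESeq2 adjusted p = 4.72e-09) and 1.40-fold after Dex (log2 0.49 ± 0.07, DESeq2 adjusted p = 1.89e-08). Both calls held in all 19 alternative fits, with an adjusted p of 0.0147 and 0.0124 in edgeR. Dex itself moved *Gsto1* by 0.02 ± 0.07 in plain-water mice and 0.01 ± 0.07 in zinc mice, and the interaction was -0.01 ± 0.10, with a 95% interval of -0.21 to 0.19.

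Other members did not pass the test with zinc alone. *Ugt1a9* read 966, 881 and 909 in water-PBS and 580.4, 610.2 and 763 in zinc-PBS, without overlap, at a log2 fold change of -0.50 ± 0.21 that did not pass the test (DESeq2 adjusted p = 0.61). For *Sult1d1* the value was 0.32 ± 0.17 (DESeq2 adjusted p = 0.903) and for *Sult1a1* 0.23 ± 0.12 (DESeq2 adjusted p = 0.866). The largest negative value was that of *Sult2a7* (-0.78 ± 0.36, DESeq2 adjusted p = 0.743), and the largest positive value among those not called was that of *Gstp2* (0.39 ± 0.61), which DESeq2 did not test for its low counts. The median over members was 0.05, against -0.00 over all genes. Without zinc-Dex replicate 1 the count of changed members was 2.

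In Dex-injected mice, zinc changed 4 of 49 members tested, against 1.35% of all genes, and the stricter rule kept 3, against 0.469%. *Gsto1* and *Gsta2* were higher, *Sult5a1* and *Sult3a2* were lower. edgeR called 1 member, *Gsto1*. An unadjusted p under 0.05 was found for 23 members in DESeq2 and 22 in edgeR. The share of all genes under that unadjusted threshold was not counted, so these numbers cannot be read as particular to the members. *Gsta2* of the alpha class, an enzyme of peroxide and electrophile removal, had 219, 218 and 232 normalized counts in water-PBS, 195, 267 and 177 in zinc-PBS, 118, 174 and 208 with Dex on plain water and 382, 249 and 378 with both. Every zinc-Dex library lay above every water-Dex library. The means of 167 ± 45.5 and 336 ± 75.8 (SD, n = 3) gave a log2 difference of 1.01 ± 0.22 (DESeq2 adjusted p = 0.00127).

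*Sult3a2*, of a small group whose relative *Sult3a1* is known for sulfating amines, had 66.0, 120.2 and 57.4 normalized counts with Dex on plain water and 19.6, 53.3 and 19.2 with Dex on zinc water. The groups did not overlap, but zinc-Dex replicate 2 lay close to the water-Dex range. The log2 difference was -1.41 ± 0.40 (DESeq2 adjusted p = 0.0396). Without Dex the libraries had 60.9, 42.8 and 62.6 on plain water and 34.3, 40.2 and 67.9 on zinc water, which overlapped. Removing zinc-Dex replicate 1 or 3 ended the call, as did edgeR, 4 of 17 alternative fits in all. Of the members not called, *Sult2a3* had the largest positive value (2.52 ± 0.80, DESeq2 adjusted p = 0.0925) and *Sult3a1* the largest negative value (-0.70 ± 0.33, DESeq2 adjusted p = 0.423). Removing water-Dex replicate 2 left 2 members changed, and removing zinc-Dex replicate 2 gave 15.

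The zinc-Dex mice differed among themselves in these genes. Of the 47 members whose mean reached 50 normalized counts, 7 (14.9%) differed more than 2-fold between the highest and lowest zinc-Dex library, against 1.30% of 9574 genes at that level. The numbers were 1 of 47 in water-PBS, 3 in zinc-PBS and 5 in water-Dex, against 2.03%, 1.52% and 0.794% of all genes. In zinc-Dex replicate 2 the members deviated from the mean of the other 2 mice with an SD of 0.72 on the log2 scale, the highest of the 12 libraries, while its SD over all genes was 0.24, within the range of 0.20 to 0.29 of all libraries.

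Over all 50 members, replicate 2 was the lowest of the 3 zinc-Dex mice in 29 and the highest in 12. Among the 7 members that differed more than 2-fold it was the lowest in 4, all hydroxysteroid sulfotransferases of the *Sult2a* group (*Sult2a1*, *Sult2a2*, *Sult2a3* and *Sult2a5*). *Sult2a1* had 7005, 1986 and 5955 normalized counts in zinc-Dex, *Sult2a2* 3921, 1798 and 3629 and *Sult2a5* 217, 62.2 and 177. In water-PBS the same genes had 2152, 2355 and 2748, then 1917, 2155 and 2181, then 63.0, 100.1 and 60.4. Replicate 2 thus lay below or within the range of the control mice, while replicates 1 and 3 lay above it for all 3 genes and for *Sult2a3*. In water-Dex the same 3 genes had 1615, 2644 and 3438, then 1330, 1879 and 2554, then 30.5, 89.3 and 80.1. In zinc-PBS they had 2971, 2861 and 2277, then 2443, 2588 and 1842, then 104, 120 and 38.9. The highest library was also more than 2-fold above the lowest for *Sult2a1*, *Sult2a3* and *Sult2a5* in water-Dex. The same held for *Sult2a3* and *Sult2a5* in zinc-PBS. These genes lie together on chromosome 7 and share sequence (66.8% unique windows for *Sult2a1* and 65.5% for *Sult2a5*), so they are not independent readings. *Sult2a8*, a bile acid sulfotransferase of the same cluster with 98.3% unique windows, had its highest value in replicate 2, at 7438, 9244 and 7059, and *Sult2a7* (81.5, 52.2 and 50) its lowest in replicate 3.

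In the other 3 of these 7 members replicate 2 was the highest. *Sult3a1* had 967, 1906 and 812 in zinc-Dex against 2035, 2207 and 1756 in water-Dex. *Ugt1a9* had 430.1, 895 and 879 against 1191, 1145 and 1064, where replicate 1 alone was far below the others. *Sult3a2* followed *Sult3a1*. *Sult2a1*, *Sult2a2*, *Sult2a3* and *Sult2a5* thus ran opposite to *Sult3a1* and *Sult3a2* among the 3 mice, with replicates 1 and 3 on the same side. The cause was not tested.

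**Figure D4:**
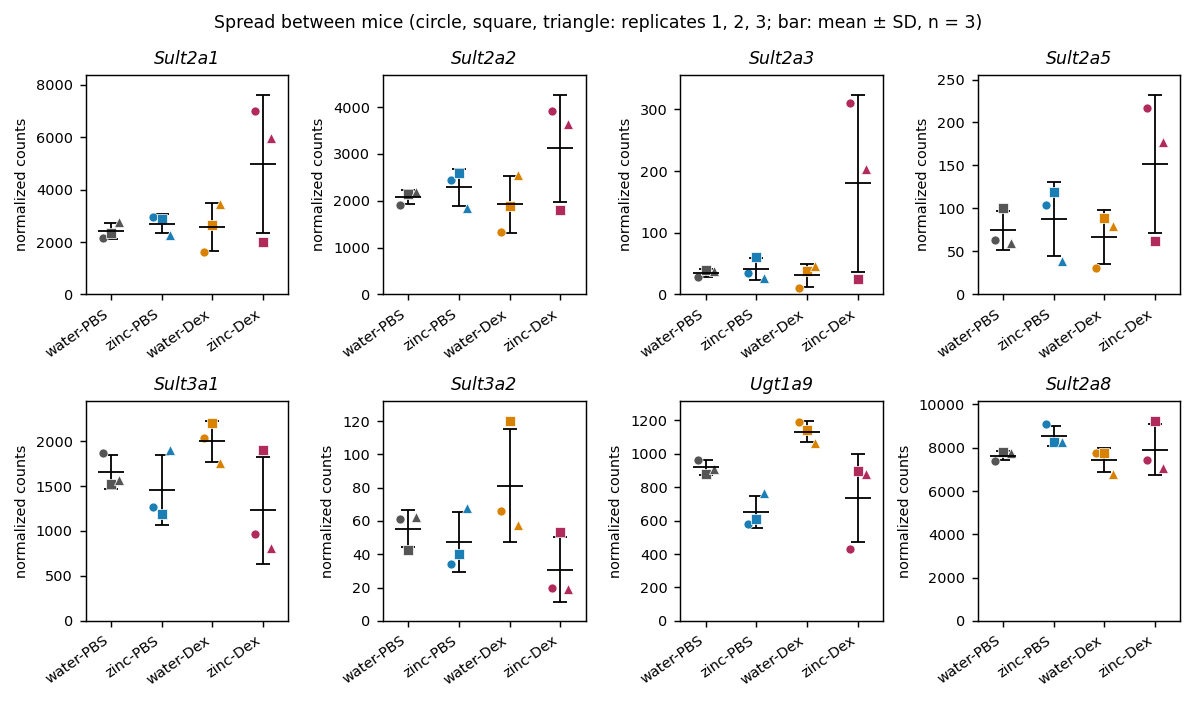
Normalized counts (y axis, from 0) of 8 members in each mouse of the 4 groups. Symbols are replicates 1 to 3 and bars are mean ± SD (n = 3). The square of zinc-Dex, replicate 2, is the lowest of its group for the first 4 genes and the highest for *Sult3a1*, *Sult3a2*, *Ugt1a9* and *Sult2a8*.

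When zinc-Dex replicate 2 was left out, 15 members differed between zinc-Dex and water-Dex, against 2.43% of all genes tested. The 10 higher included *Sult2a3* (log2 3.04 ± 0.43, DESeq2 adjusted p = 3.31e-09), *Sult2a1* (1.34 ± 0.23, DESeq2 adjusted p = 3.89e-06), *Gsta2* (1.19 ± 0.22, DESeq2 adjusted p = 1.76e-05) and *Sult2a2* (0.97 ± 0.21, DESeq2 adjusted p = 0.000629). The 5 lower were *Sult3a2* (-2.06 ± 0.41), *Sult3a1* (-1.17 ± 0.19), *Sult5a1* (-0.97 ± 0.26), *Ugt1a9* (-0.79 ± 0.22) and *Ugt2b1* (-0.39 ± 0.12). This fit has 2 mice in the zinc-Dex group, chosen after their values were seen, and is given as a description of how far 1 mouse sets the result.

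The interaction asked whether the Dex effect differed between zinc and plain-water mice. It passed for 0 members, against 0.0229% of all genes, and 0.0191% under the stricter rule. In DESeq2 and in edgeR 5 members had an unadjusted p under 0.05, and edgeR also called 0. The share of all genes under that unadjusted threshold was not counted. The largest positive and negative values were those of *Sult2a3* (2.31 ± 1.14) and *Sult3a2* (-1.19 ± 0.56), and the lowest adjusted p was that of *Gsta2* (log2 1.08 ± 0.31, DESeq2 adjusted p = 0.513). For the genes that Dex raised under both kinds of water the 95% intervals were -0.63 to 0.66 for *Gstm3*, -0.52 to 0.44 for *Sult1d1* and -0.26 to 0.56 for *Gstm2*. Differences in the Dex effect within these bounds remain compatible with the values of 3 mice a group. The bounds are not a limit of detection, since *Gsta2*, with an interval of 0.48 to 1.68, was not called either. The count was 1 without zinc-PBS replicate 2 or water-Dex replicate 3. Without zinc-Dex replicate 2 it was 4, *Sult2a3*, *Gsta2*, *Sult3a1* and *Sult2a1*, against 0.287% of all genes.

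Zinc and Dex together, compared with the control, changed 13 of 50 members, against 24.4% of all genes, and the stricter rule kept 5, against 11.2%. By direction, 12 of 50 were higher, against 13.2% of all genes, and 1 of 50 was lower, against 11.2%. This comparison shares its libraries with those above. The 12 members higher were *Sult2a3* (log2 2.35 ± 0.80), *Gstm3* (1.56 ± 0.23), *Sult1d1* (1.54 ± 0.17), *Ugt1a10* (1.27 ± 0.44), *Gstm2* (0.71 ± 0.15), *Gsta2* (0.59 ± 0.22), *Gstt3* (0.54 ± 0.20), *Gsto1* (0.50 ± 0.07), *Ugt1a6b* (0.46 ± 0.17), *Sult1a1* (0.44 ± 0.12), *Gstm1* (0.40 ± 0.12) and *Gstm6* (0.35 ± 0.13), and *Sult5a1* was lower (-1.01 ± 0.23). For *Sult1d1* the zinc-Dex mean was 7348 ± 1615 against 2527 ± 508 in the control (SD, n = 3; DESeq2 adjusted p = 3.05e-17). *Sult1a1* passed in none of the other comparisons of all 12 libraries. It had 5786 ± 1018 against 4255 ± 258 here (DESeq2 adjusted p = 0.00163), a call kept in all 19 alternative fits, as were those of *Gstm3*, *Sult1d1*, *Gstm2*, *Gsto1* and *Sult5a1*. The other 7 calls were lost in some of the 19, *Ugt1a6b* in 8, *Ugt1a10* in 7, *Sult2a3*, *Gstt3* and *Gsta2* in 6 each, *Gstm6* in 4 and *Gstm1* in 3. The groups of *Sult2a3*, *Gstt3* and *Ugt1a6b* overlapped. Among those not called, *Sult2a1* had the largest positive value (1.04 ± 0.44, DESeq2 adjusted p = 0.0669) and *Sult3a2* the largest negative value (-0.86 ± 0.41, DESeq2 adjusted p = 0.112). Removing water-PBS replicate 1 or zinc-Dex replicate 1 left 6 members changed, water-PBS replicate 2 left 8, zinc-Dex replicate 3 left 7, and removing zinc-Dex replicate 2 gave 21. The shares of all genes called in these fits are not given here, so the shifts cannot be read as particular to the members.

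Among the 16 glucuronosyltransferases, 2 passed the test with Dex on plain water and 0 on zinc water. *Ugt1a1*, the enzyme of bilirubin conjugation, had 1212 ± 87.7, 1257 ± 79.5, 1281 ± 120.4 and 1342 ± 191 normalized counts in the order control, zinc, Dex and both (SD, n = 3). The 95% interval of its log2 Dex effect was -0.15 to 0.31 on plain water and -0.13 to 0.32 on zinc water. *Ugt2b5*, another abundant member, had intervals of 0.01 to 0.34 and -0.12 to 0.21. *Gstz1*, the zeta class enzyme that acts in tyrosine breakdown, had -0.12 to 0.19 and -0.13 to 0.18.

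Genes that supply the donors were measured beside the members. Of 8 genes of sulfate activation and supply, 2 rose with Dex on plain water and 3 on zinc water, and 0 changed with zinc alone. *Bpnt1* and *Impad1*, phosphatases that clear the nucleotide left after sulfate transfer, had log2 fold changes of 0.44 ± 0.09 and 0.30 ± 0.08 on plain water and 0.33 ± 0.09 and 0.25 ± 0.08 on zinc water. *Papss2*, which makes the donor PAPS, rose in zinc-Dex (0.40 ± 0.14, DESeq2 adjusted p = 0.0219) and gave 0.09 ± 0.14 in water-Dex. Of 5 genes of UDP-glucuronate supply, 2 fell with Dex on plain water and 1 on zinc water, and 1 rose with zinc alone. *Slc35d2*, a nucleotide sugar transporter, fell in both, from 397 to 139 and from 308 to 141 normalized counts (group means).

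Of 11 genes of glutathione synthesis and recycling, 9 or 10 were tested in each of these comparisons. Among them 0 changed with Dex and 1 fell with zinc, both without and with Dex. It was *Gclc*, the catalytic subunit of the first enzyme of glutathione synthesis, with group means of 2912 in water-PBS and 2056 in zinc-PBS (log2 -0.50 ± 0.11, DESeq2 adjusted p = 0.00283). After Dex it was 2857 on plain water and 1890.1 on zinc water (log2 -0.60 ± 0.11, DESeq2 adjusted p = 3.09e-05). *Gclc* and *Gsto1* thus moved in opposite directions with zinc in both comparisons. Of 17 other conjugating enzymes (methyl-, acetyl- and amino acid transferases and their partners), 16 or 17 were tested in each comparison. With Dex, 1 rose and 2 fell on plain water and 1 rose on zinc water, and 0 changed with zinc alone. *Acsm3* was the one that rose in both (0.50 ± 0.11 and 0.47 ± 0.11). Of 10 deconjugating enzymes measured, 2 rose with Dex on plain water, and 1 rose and 1 fell on zinc water. *Ces2a*, a carboxylesterase, rose in both, by 0.53 ± 0.08 and 1.02 ± 0.08 on the log2 scale, and was the 1 that was lower with zinc alone (-0.37 ± 0.08).

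Of 10 exporters of conjugates, 1 rose and 1 fell with Dex on plain water, 3 rose and 1 fell on zinc water, and 0 changed with zinc alone. *Abcc2*, the canalicular pump of glucuronide and glutathione conjugates, had group means of 6313 and 9901 on plain water (log2 0.65 ± 0.10) and 6884 and 11266 on zinc water (log2 0.71 ± 0.10). Of 14 regulators, 3 rose and 4 fell with Dex on plain water, 4 rose and 3 fell on zinc water, and 0 changed with zinc alone. *Ahr* rose by 1.64 ± 0.16 and 1.90 ± 0.16 on the log2 scale and *Nr1i2*, which encodes PXR, by 0.58 ± 0.11 and 0.75 ± 0.11. *Nfe2l2* gave -1.02 ± 0.13 and -0.71 ± 0.13, both lower and past the threshold. Of the 6 sentinel targets of CAR, PXR and AHR, 4 rose with Dex on plain water and 5 on zinc water, among them *Tiparp* (2.39 ± 0.24 and 2.79 ± 0.23), and 2 were lower with zinc alone, *Cyp2b10* (-0.98 ± 0.22) and *Cyp3a11* (-0.48 ± 0.12). Of the 7 sentinel targets of NRF2, 6 were tested in each of these comparisons. In each Dex comparison 1 rose (*Srxn1*) and 1 fell (*Osgin1*), and 0 changed with zinc alone. Whether these shifts have any part in the members' changes was not tested.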

How the data were processed

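Liver RNA of 12 mice was sequenced as stranded single-end libraries, 1 library per mouse. Per the study's methods and the submitters' processing notes, the authors trimmed the reads (Trimmomatic), aligned them to mm10 with HISAT2 2.0.4 and counted them per Ensembl gene with featureCounts, without multimapping reads, and deposited raw counts. The annotation release and the strand and overlap settings of the counting are not given in the sources used here. Leaving out multimapping reads lowers the counts of near-identical copies. Libraries held 9091152 to 12303527 counts.

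From these counts, DESeq2 1.42.0 (R 4.3.3) was fitted once to all genes of all 12 libraries with 1 term per group (8 residual degrees of freedom). Wald tests compared the groups with unshrunken log2 fold changes, Benjamini-Hochberg adjustment ran over all genes DESeq2 tested, and a gene was changed at an adjusted p under 0.05. The interaction was the Dex effect with zinc minus that without. edgeR 4.0.16 gave the quasi-likelihood alternative. The DESeq2 and edgeR fits were also run on simulated counts with a known Dex change. The other steps were not tested in this way. Other alternatives were TMM scaling, a filter of 10 counts in 3 libraries, no independent or Cook's filter, a replicate term, only the 6 libraries compared, the log2 threshold of 0.8 and leaving out each library. Levels per kb divide normalized counts by merged exon length from GENCODE M21. Bases that lie in an exon of another gene on the same strand were left out of that length. Uniqueness is the share of 50-base exon windows found in no other gene's exons.

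Named were the members changed in a comparison, the 3 highest per kb of each family, and the largest rise and fall that missed the threshold. Single genes given as examples beyond this rule were chosen after their values were seen. The members, pathway lists and marker lists were chosen with earlier results of these data known, so list counts are descriptions.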

Additional observations from a re-analysis of the deposited data

How the results depend on the processing

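With the added log2 threshold of 0.8, Dex on plain water left 3 members higher and 0 lower, Dex on zinc water 5 higher and 0 lower, zinc alone 0 changed, and zinc and Dex together 5. In edgeR, zinc among Dex-injected mice left 1, and with only the 6 libraries compared, zinc alone gave 2. When each library was left out in turn, the members higher numbered 3 to 7 and those lower 0 to 1 with Dex on plain water, 4 to 13 and 0 to 5 with Dex on zinc water, 1 to 2 with zinc alone, 2 to 15 with zinc among Dex-injected mice, 6 to 21 with both agents and 0 to 4 for the interaction. The libraries behind these ranges are named beside the results, and the causes were not tested. The share of all genes called in such a fit is given only without zinc-Dex replicate 2, for zinc among Dex-injected mice and for the interaction. The other counts have no such background. No named change reversed its direction under any alternative run, and TMM scaling, the count filter and the Cook's filter kept every count within 1.5 times.

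Mice with the same replicate number did not deviate together (18 pairs, correlations of -0.18 to 0.18, 1 over 0.1), so the numbers were not read as pairs. With the replicate block, Dex on plain water gave 4 higher and 1 lower, Dex on zinc water 6 higher and 1 lower, zinc alone 1, zinc among Dex-injected mice 4, both agents 11 and the interaction 0.

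With 3 mice a group, small differences were not detectable. Counts of *Gstp2* and *Ugt1a10* were too low for a firm level, and those of *Sult2a2*, *Gsta2* and the *Ugt1a* genes rest on the part of the transcript that is unique.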
